A study of Mus musculus with 11 samples.

Results

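The comparison described here is an interaction: the difference between tdT+ and tdT- cells in the Sca-1+ gate, minus the same difference in the Sca-1neg gate, gene by gene. All 11 libraries of the series entered it, and the whole comparison was repeated on 10 libraries, without replicate 2 of the Sca-1neg tdT+ group, because its reporter count was at the level of tdT- cells. Cells came from the dorsal skin of male mice of the strain CD4Cre R26-tdT (C57Bl6/N), all untreated as far as the labels say, and each library pooled 2 mice. In these mice Cre is driven by the CD4 promoter, and a cell that has made Cre, together with its progeny, carries the tdTomato reporter (tdT). A tdT+ cell therefore has a history of Cre activity and need not be a T cell or express Cd4 when sorted. Thermolysin was used to free epidermal cells, and FACS took those that were CD49f+CD34+, then by Sca-1 and tdT. The 4 groups were Sca-1neg tdT- (3 libraries), Sca-1neg tdT+ (3), Sca-1+ tdT- (2) and Sca-1+ tdT+ (3). Every group had 1 library of 29-week mice, its replicate 1, and the others were of 32-week mice. No group lacked the Cre or the reporter allele, so a control without them was not part of the comparison.

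CD34 together with CD49f, the alpha-6 integrin, marks the bulge of the mouse hair follicle, where slow-cycling stem cells rest between hair cycles. Sca-1 (Ly6a) is low in the bulge and high in the upper follicle and in epidermis between follicles. Endothelial cells of small vessels also carry CD34, CD49f and Sca-1 on their surface, so the same gate can hold them. A negative interaction means that tdT+ cells stood lower against tdT- cells in the Sca-1+ gate than in the Sca-1neg gate; such a value can come from any of the 4 groups. In these bulk samples, fewer cells of a type and less RNA per cell cannot be told apart.

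Total counts ran from 17413027 to 46542353 per library. The reporter was at 2.54 to 4.89 CPM, read counts normalised to the library total, in the 5 tdT- libraries and at 133 to 307 CPM in 5 of the 6 libraries labelled tdT+. Replicate 2 of the group labelled Sca-1neg tdT+ had 2.05 CPM (95% Clopper-Pearson interval 1.44 to 2.83, counting error only). The summed level of 20 liver genes was 22900 CPM in Sca-1neg tdT- replicate 2, and in Sca-1neg tdT+ it was 41300 CPM for replicate 1 and 19900 CPM for replicate 2, while the remaining 8 libraries had 88.5 to 291 CPM. The same 3 libraries, labelled male, held Xist, a noncoding RNA made by female cells, at 211, 418 and 1320 CPM, against at most 1.27 CPM elsewhere. The labels do not say whether replicates were separate sorts, so p-values measure only the spread between these libraries.

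The tdT difference was lower in the Sca-1+ gate for nearly all of the genes that passed, a small set. Among them were the vessel genes Nrp2 and Fzd4, the bulge genes Cd34 and Tcf7l1, the matrix gene Sparc and the cytochrome P450 gene Cyp2d22; 15 of the 95 genes called lower were on any of the 33 gene lists used. With 11 libraries, 98 of 20307 genes tested (0.483%) passed an adjusted p of 0.05. Of these, 95 (0.468%) had a lower and 3 (0.0148%) a higher tdT difference in the Sca-1+ gate. The median interaction of the 95 was -2.83 on the log2 scale (range -9.81 to -1.37), while the median over all genes tested was 0.05. At an unadjusted p below 0.05 there were 2476 genes, 1511 of them lower. Limma-voom, here always with quality weights for the libraries, called 680 genes, 90 of them higher. DESeq2 called 841, 93 of them higher. A gene that did not pass is not shown to have the same tdT difference in both gates.

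Without Sca-1neg tdT+ replicate 2, 80 of 20392 genes passed (0.392%), 78 lower (0.383%) and 2 higher (0.00981%). DESeq2 then called 694 (74 higher) and limma-voom 129 (1 higher). The number called both ways was 64, which is 65.3% of the 98 and 80% of the 80. Leaving out all 3 libraries with liver transcripts gave 220 genes, 205 of them lower, with 75 of the 98 among them; the Sca-1neg tdT+ group then rests on 1 library, whose spread is then taken from the other groups. Within the 32-week libraries alone, where Sca-1+ tdT- has 1 library, no gene passed in edgeR and 1119 had an unadjusted p below 0.05. The 29-week libraries are 1 per group and allow no test. The number called moved from 26 without Sca-1+ tdT- replicate 2 to 347 without Sca-1neg tdT+ replicate 3. It was also over 1.5 times smaller without Sca-1neg tdT- replicate 1 (43), Sca-1neg tdT- replicate 3 (45), Sca-1+ tdT- replicate 1 (54) and Sca-1+ tdT+ replicate 1 (64).

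**Figure D1:**
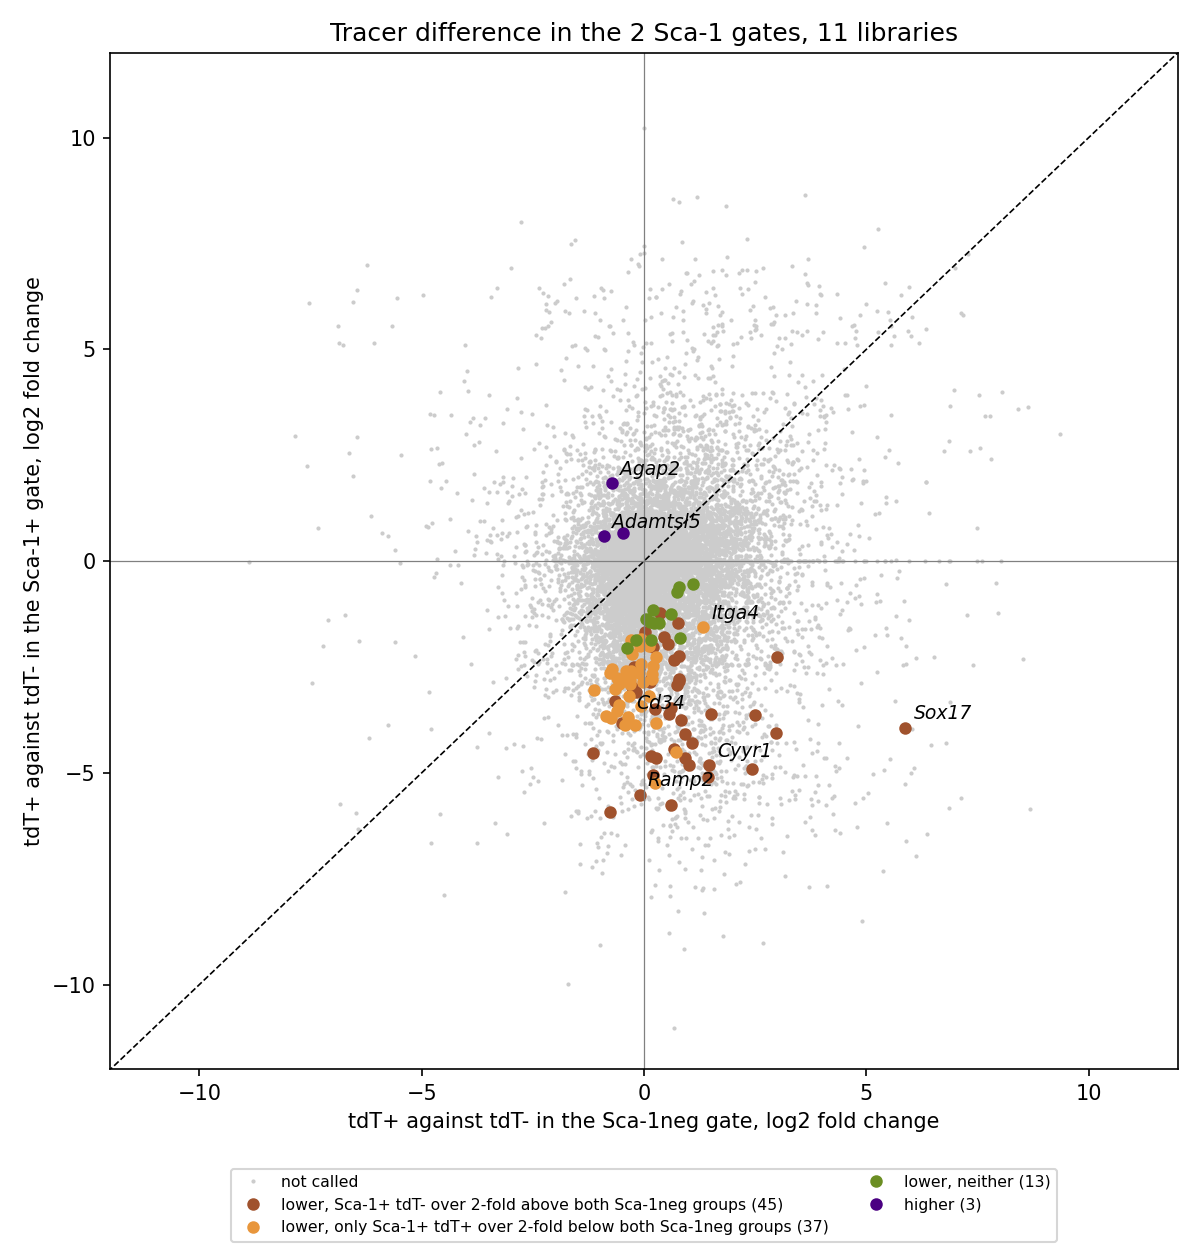
Each point is 1 gene tested, with its tdT+ against tdT- log2 fold change in the Sca-1neg gate (x axis) and in the Sca-1+ gate (y axis), from the fit to 11 libraries; the dashed line marks equal differences in both gates. The 95 genes called lower lie below the line, most of them near 0 on the x axis and well below 0 on the y axis, and the 3 called higher lie above it.

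Over the 95 lower genes the median tdT difference was -2.83 in the Sca-1+ gate and 0.16 in the Sca-1neg gate (log2), and it was the larger of both in the Sca-1+ gate for 90. Sca-1+ tdT- was the highest of the 4 groups for 70 genes, and Sca-1+ tdT+ the lowest for 80. Selection for a negative interaction itself favours both outcomes, and the share over all genes was not counted. On the linear scale, the difference of the differences in mean CPM had the same sign for 92 of the 95; the exceptions, Trpv4, Pdlim3 and Igdcc4, were named after their values were seen.

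By level, the lower genes fell into 2 main patterns. In 45, mean CPM of Sca-1+ tdT- cells was over 2-fold above both Sca-1neg groups (median interaction -3.73; 0.1 CPM was added to each mean). Of these 45, 18 also had Sca-1+ tdT+ over 2-fold below both Sca-1neg groups, so the patterns overlap. In 37 others, Sca-1+ tdT- did not meet that condition and Sca-1+ tdT+ was over 2-fold below both Sca-1neg groups (median -2.61). The remaining 13 met neither condition (median -1.66). Without Sca-1neg tdT+ replicate 2 the counts were 45, 27 and 6 of 78.

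Nrp2 stood for the first pattern and Cd34 for the second, and the 250 bases before the RefSeq start of each are shown as the promoter sequence of 1 example per pattern (build GRCm38.p6, 5′ to 3′, both on the + strand). Nrp2 lies at chr1:62703067-62703316 and Cd34 at chr1:194938571-194938820. RefSeq places both starts further downstream than GENCODE, whose gene coordinates are given below, so the last bases of each window lie inside the GENCODE gene. Capitals mark CTTTGA, the core motif of TCF/LEF factors, searched on both strands.
Nrp2: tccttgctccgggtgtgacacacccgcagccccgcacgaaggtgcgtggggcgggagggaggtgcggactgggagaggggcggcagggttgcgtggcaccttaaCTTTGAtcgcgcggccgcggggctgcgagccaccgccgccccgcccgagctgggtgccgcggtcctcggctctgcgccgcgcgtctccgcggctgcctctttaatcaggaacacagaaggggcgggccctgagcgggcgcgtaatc
Cd34: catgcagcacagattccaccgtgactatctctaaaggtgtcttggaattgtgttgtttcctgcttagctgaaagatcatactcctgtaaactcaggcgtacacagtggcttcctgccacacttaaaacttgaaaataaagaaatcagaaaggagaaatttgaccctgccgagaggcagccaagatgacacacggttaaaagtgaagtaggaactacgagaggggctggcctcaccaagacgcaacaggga
The motif occurred once in the Nrp2 window and not in that of Cd34, and GGAAGT, an ETS factor core whose reverse complement can share 1 end base with it, in neither. Over 300 bases, from 250 before to 50 after the start, RefSeq held a window for 13213 genes tested and for 75 of the 95 lower genes. CTTTGA was in 13.3% of the windows of lower genes and in 12.9% of all. GGAAGT was in 16% of the former and in 27.1% of all windows. A match is a description of letters and not of a binding site.

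The genes of the first pattern included receptors and signalling proteins known from vessels. Nrp2 (chr1:62703285-62818695 in mm10), a co-receptor for VEGF-C and semaphorins, was at 26.7, 34 and 25.8 CPM in Sca-1neg tdT- cells, and at 36.9, 61.1 and 30.6 CPM in Sca-1neg tdT+ cells. Its level was 189 and 207 CPM in Sca-1+ tdT- cells, and 11.1, 21.5 and 16.1 CPM in Sca-1+ tdT+ cells. Both Sca-1+ tdT- libraries were above all others, and the Sca-1+ tdT+ libraries were below all others. The interaction was -4.19 ± 0.42 (SE, log2; adjusted p = 0.0036), and -3.84 without Sca-1neg tdT+ replicate 2 (adjusted p = 0.00216).

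Fzd4, a Frizzled receptor that takes Wnt ligands and Norrin and is needed for retinal vessels, had the same form. Its level was 9.86, 12.8 and 7.76 CPM in Sca-1neg tdT- cells, 15.9, 15.3 and 5.40 CPM in Sca-1neg tdT+ cells, 61.5 and 64.7 CPM in Sca-1+ tdT- cells, and 1.87, 2.95 and 2.79 CPM in Sca-1+ tdT+ cells. No Sca-1+ tdT+ library reached the lowest Sca-1neg library. The interaction was -4.91 ± 0.57 (adjusted p = 0.00559), and -4.71 with 10 libraries (adjusted p = 0.00999).

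Arhgap31, which switches off the small GTPases Rac1 and Cdc42, was at 21.1 to 29.4 CPM in Sca-1neg tdT- cells and 14.7 to 38.1 CPM in Sca-1neg tdT+ cells. It was at 148 and 132 CPM in Sca-1+ tdT- cells against 4.54 to 7.17 CPM in Sca-1+ tdT+ (interaction -4.76 ± 0.46, adjusted p = 0.0036; 10 libraries -4.44, adjusted p = 0.00216). Spns2, the exporter of sphingosine-1-phosphate, was at 115 and 117 CPM in Sca-1+ tdT- cells and at 3.30 to 5.91 CPM in Sca-1+ tdT+ cells. In Sca-1neg tdT+ its replicate 2 was at 32.4 CPM, above the 13.9 and 6.17 CPM of the others. Its interaction was -5.56 ± 0.75 (adjusted p = 0.014), and -4.76 without that library (adjusted p = 0.00372). Cyyr1, a membrane protein, gave -6.27 ± 0.69 (adjusted p = 0.00522) and again stood highest within its group in Sca-1neg tdT+ replicate 2, at 23.0 CPM against 8.48 and 5.62 CPM. Without it the interaction was -5.46 (adjusted p = 0.00216).

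Guidance receptors and their ligands were among these genes. Plxna4, a semaphorin receptor, gave -5.84 ± 0.75 (adjusted p = 0.00695), and Sema6a, a membrane-bound semaphorin, -3.67 ± 0.39 (adjusted p = 0.00507). Plxna4 was at 34.1 and 30.6 CPM in Sca-1+ tdT- cells and at no more than 1.53 CPM in Sca-1+ tdT+ cells; its Sca-1neg libraries lay between 1.27 and 7.07 CPM. Hip1, a clathrin adaptor, gave a smaller but tightly measured value of -2.28 ± 0.21 (adjusted p = 0.00327). Its levels were 68.2 to 71.7 CPM in Sca-1neg tdT- cells, 55.8 to 66.7 CPM in Sca-1neg tdT+ cells, 141 and 156 CPM in Sca-1+ tdT- cells, and 21.8 to 29.0 CPM in Sca-1+ tdT+ cells.

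Several genes with a large value rested on few counts in at least 1 group. Sox17, a transcription factor of arterial endothelium, had 1, 3 and 0 counts in Sca-1neg tdT- cells, then 17, 94 and 12 counts in Sca-1neg tdT+ cells, 467 and 399 in Sca-1+ tdT- cells, and 31, 9 and 34 in Sca-1+ tdT+ cells. Its fitted interaction of -9.81 ± 1.52 (adjusted p = 0.021; 10 libraries -8.23, adjusted p = 0.0194) depends on those few counts and is no bound. Thsd7a, an endothelial membrane protein, was at 25 and 23.6 CPM in Sca-1+ tdT- cells and at 0.103 to 1.19 CPM in Sca-1+ tdT+ (interaction -7.32 ± 1.15, adjusted p = 0.0225). The interactions of Gria3, a glutamate receptor subunit, Hspa12b, an endothelial chaperone, and Tmem255a, a membrane protein, were -7.03, -6.53 and -6.36; all 3 lost the call without Sca-1neg tdT+ replicate 2 (adjusted p = 0.0771, 0.062 and 0.0795). Tmem47, a junction protein, gave -5.37 and had an adjusted p of 0.0241, and 0.0506 without that library. Dmtn and Sncaip, an actin-bundling and a synuclein-binding protein, gave -5.27 and -5.11 and passed both ways. With each further library left out of the 10, Dmtn lost the call in 9 of 10 fits and Sncaip in 3. Starting from 11 libraries, Dmtn lost it in 5 of 11 fits and Sncaip in 1.

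**Figure D2:**
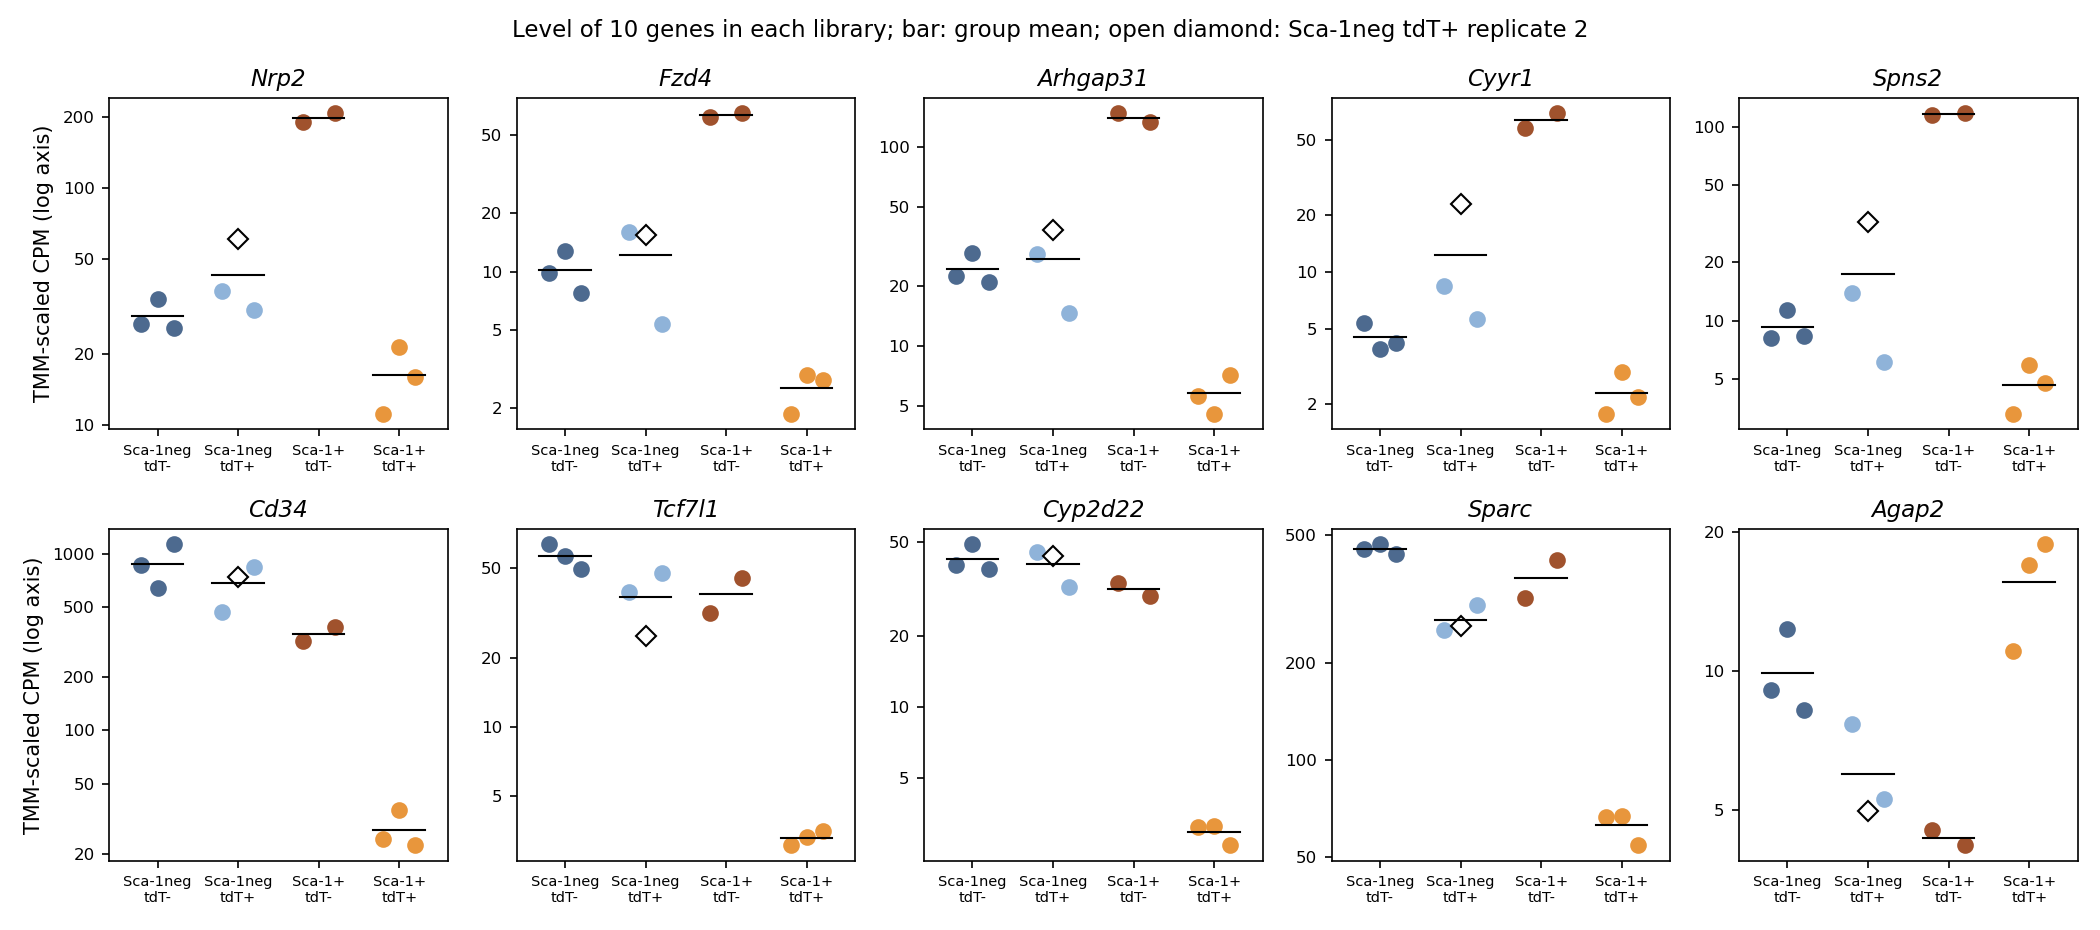
TMM-scaled CPM (log axis) of 10 genes in each of the 11 libraries, by group; bars are group means and the open diamond is Sca-1neg tdT+ replicate 2. In the upper row both Sca-1+ tdT- libraries stand above every other library, in the lower row the Sca-1+ tdT+ libraries of Cd34, Tcf7l1, Cyp2d22 and Sparc stand below every other library, and Agap2 runs the other way within the Sca-1+ gate.

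Over all 20307 genes tested, edgeR called 0.468% lower and 0.0148% higher, and 1511 were lower and 965 higher at an unadjusted p below 0.05. DESeq2 called 748 lower and 93 higher, and limma-voom 590 and 90. The counts of each list below are to be read beside these. Among 22 vascular growth factors and their receptors, 3 were called lower and none higher, with a median interaction of -3.31 (10 libraries: 3 of 22, median -2.17). Beside Nrp2, these were Calcrl and Ramp2, the 2 parts of the receptor for adrenomedullin. Ramp2 was at 78.3 and 74.7 CPM in Sca-1+ tdT- cells and at 0.568 to 2.56 CPM in Sca-1+ tdT+ cells, against 8.02 to 22.8 CPM over the 6 Sca-1neg libraries. Its interaction was -5.42 (adjusted p = 0.0151), and -4.77 with 10 libraries (adjusted p = 0.0122). Calcrl was at 133 and 109 CPM in Sca-1+ tdT- cells and at 13.5 to 23.2 CPM in Sca-1+ tdT+ cells. Sca-1neg tdT+ replicate 2 held 42.0 CPM of it, above the 12.9 to 17.9 CPM of the other Sca-1neg libraries (interaction -3.56, adjusted p = 0.0151; 10 libraries -2.99, adjusted p = 0.00708). The VEGF receptor Flt1 and the angiopoietin receptor Tek, named after their values were seen, gave -8.14 and -7.14 but did not pass (adjusted p = 0.155 and 0.129). With 10 libraries the values were -6.03 and -6.08, and without the 3 libraries with liver transcripts -2.75 and -3.56. For Flt1 the Sca-1neg tdT+ libraries were at 9.52, 54.5 and 0.386 CPM, a wide spread within 1 group. Its 9.52 and 54.5 CPM are from libraries with liver transcripts. Arterial and venous genes, 18 in number, had a median of -2.88 and no call in edgeR, with 11 lower at an unadjusted p below 0.05, 3 in DESeq2 and 4 in limma-voom; with 10 libraries 1 was called lower, Selp, and the median was -2.13.

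The blood endothelial list, 20 genes, had 1 call lower (Sox17) and none higher, with all 20 values negative and a median of -7.26. Of these 20, 19 had an unadjusted p below 0.05, DESeq2 called 9 and limma-voom 8. In 19 of the 20, both Sca-1+ tdT- libraries were above all 9 others, as they were for 4.8% of all genes tested. The summed level of the list was 6990 and 7590 CPM in Sca-1+ tdT- cells, and 103, 190 and 225 CPM in Sca-1+ tdT+ cells. In the Sca-1neg gate it was 69.9, 277 and 93.1 CPM in tdT-, and 228, 1660 and 17.4 CPM in tdT+, so that replicate 2 of the latter exceeded its own group many times. Without that library the list had 2 calls (Sox17 and Emcn), 19 of 20 values negative and a median of -4.70. Pecam1, the surface marker CD31 of endothelium, chosen after its values were seen, was at 688 and 728 CPM in Sca-1+ tdT- cells, 13.4 to 32.9 CPM in Sca-1+ tdT+ cells, 5.21, 175 and 1.05 CPM in Sca-1neg tdT+ cells, and 7.98 to 19.6 CPM in Sca-1neg tdT- cells. Its interaction was -7.15 (adjusted p = 0.276), and -2.90 with 10 libraries (adjusted p = 0.325).

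The second pattern held the sort marker Cd34 and genes of the bulge. Cd34 (chr1:194938819-194961279), the sialomucin used in the gate, was at 864, 638 and 1130 CPM in Sca-1neg tdT- cells, and at 468, 735 and 842 CPM in Sca-1neg tdT+ cells. In Sca-1+ tdT- it was at 320 and 383 CPM, and in Sca-1+ tdT+ at 24.3, 35.7 and 22.4 CPM, although all groups were sorted as CD34+. The Sca-1+ tdT+ libraries lay far below all others, while the Sca-1neg groups overlapped. The interaction was -3.32 ± 0.41 (adjusted p = 0.00695), and -3.26 without Sca-1neg tdT+ replicate 2 (adjusted p = 0.015).

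Tcf7l1 (chr6:72626378-72789254), the TCF/LEF repressor that keeps bulge cells undifferentiated, was at 63.2, 56.5 and 49.5 CPM in Sca-1neg tdT- cells, 39.1, 25 and 47.5 CPM in Sca-1neg tdT+ cells, 31.5 and 44.8 CPM in Sca-1+ tdT- cells, and 3.04, 3.29 and 3.51 CPM in Sca-1+ tdT+ cells. The 3 libraries of the last group were close to each other and below the rest. Its interaction was -2.94 ± 0.35 (adjusted p = 0.00559; 10 libraries -3.16, adjusted p = 0.00216). Of 25 bulge genes, 3 were called lower (Cd34, Tcf7l1 and Bmp6) and none higher, against 0.468% lower over all genes tested. The list's median was -1.47. With 10 libraries 2 were called and the median was -1.62. Cd200, a bulge surface protein, gave -2.44 (adjusted p = 0.0537), while the bulge keratin Krt15 gave 0.69 (adjusted p = 0.451); both were named after their values were seen. Krt15 was lower in both Sca-1+ groups (3018 to 5040 CPM) than in the Sca-1neg groups (6274 to 11550 CPM), with overlapping tdT groups in the Sca-1+ gate; in the Sca-1neg gate the tdT+ libraries (6274 to 9217 CPM) were below the tdT- libraries (9280 to 11550 CPM). Summed over the list, levels were 26400 to 35100 CPM in Sca-1neg tdT- cells, 18500 to 29600 in Sca-1neg tdT+ cells, 11400 and 13800 in Sca-1+ tdT- cells, and 9170 to 13300 in Sca-1+ tdT+ cells.

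Cyp2d22, a cytochrome P450, had the lowest p of all genes. It was at 39.9, 48.9 and 38.3 CPM in Sca-1neg tdT- cells, 45.6, 43.6 and 32.3 CPM in Sca-1neg tdT+ cells, 33.6 and 29.6 CPM in Sca-1+ tdT- cells, and 3.09, 3.12 and 2.58 CPM in Sca-1+ tdT+ cells. The first 3 groups were within a narrow range of each other and the last stood apart (interaction -3.36 ± 0.28, adjusted p = 0.00208; 10 libraries -3.30, adjusted p = 0.00216). The highest values, 48.9, 45.6 and 43.6 CPM, were those of the 3 libraries with liver transcripts, and without these the interaction was -3.22. Lmcd1, a LIM-domain co-repressor of GATA6, was at 16.4 to 40.5 CPM in the other 8 libraries and at 2.43 to 3.05 CPM in Sca-1+ tdT+ (interaction -4.11 ± 0.41, adjusted p = 0.0036). Sorbs2, an adaptor of the cytoskeleton, was at 1.53 to 3.05 CPM in Sca-1+ tdT+ cells and at 27.1 to 103 CPM elsewhere (interaction -5.48 ± 0.65, adjusted p = 0.00695). Gfra1, the co-receptor for the growth factor GDNF, named after its values were seen, combined a lower level in both Sca-1+ groups with a tdT difference. It was at 164 to 239 CPM over the whole Sca-1neg gate, 30.8 and 51.6 CPM in Sca-1+ tdT- cells, and 6.13 to 7.33 CPM in Sca-1+ tdT+ (interaction -2.54 ± 0.30, adjusted p = 0.00559).

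Single matrix genes were called. Of 22 basement membrane genes, 3 were called lower and none higher, with a median of -1.35; with 10 libraries only Hspg2 was called and the median was -1.19. Hspg2, which encodes perlecan, was at 312 to 466 CPM in Sca-1neg tdT- cells, 232 to 299 in Sca-1neg tdT+ cells, 659 and 859 in Sca-1+ tdT- cells, and 99.5 to 126 CPM in Sca-1+ tdT+ (interaction -2.16 ± 0.29, adjusted p = 0.00795; 10 libraries -2.06, adjusted p = 0.0186). Lama4, the laminin alpha chain of vessel walls, was at 50.2 and 49.9 CPM in Sca-1+ tdT- cells and at 5.60 to 11.6 CPM in Sca-1+ tdT+ cells. Its interaction of -2.22 had an adjusted p of 0.0241, and of 0.0509 without Sca-1neg tdT+ replicate 2. Col4a2, a type IV collagen chain, gave -2.96 (adjusted p = 0.0403, and 0.0795 without that library).

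Sparc, a collagen-binding matrix protein, was the 1 gene called of 16 on the dermal fibroblast list (median -1.61). It was at 452, 468 and 436 CPM in Sca-1neg tdT- cells, 255, 262 and 303 CPM in Sca-1neg tdT+ cells, 318 and 418 CPM in Sca-1+ tdT- cells, and 66.6, 67.2 and 54.4 CPM in Sca-1+ tdT+ cells. The tdT+ libraries were below the tdT- libraries in both gates, by 0.73 ± 0.15 in the Sca-1neg and by 2.55 ± 0.17 in the Sca-1+ gate on the log2 scale. The interaction was -1.82 ± 0.23 (adjusted p = 0.00695; 10 libraries -1.85, adjusted p = 0.0136). Timp2, an inhibitor of metalloproteinases named after its values were seen, was at 34.6 to 52.9 CPM in Sca-1+ tdT+ cells and at 285 to 536 CPM elsewhere (interaction -2.85, adjusted p = 0.00695).

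Adhesion genes outside the naming rule, chosen after their values were seen, took different forms. Icam1, a ligand of leukocyte integrins, was at 551 and 504 CPM in Sca-1+ tdT- cells and at 75.6 to 122 CPM in Sca-1+ tdT+ cells; Sca-1neg tdT+ replicate 2 was at 215 CPM against 76.3 to 87.8 CPM in the other Sca-1neg libraries. Its interaction was -3.0 (adjusted p = 0.0344; 10 libraries -2.40, adjusted p = 0.00783). Itga5, the fibronectin receptor's alpha chain, gave -2.39 (adjusted p = 0.0121). Itga4, the alpha chain of VLA-4, was higher in tdT+ than in tdT- libraries of the Sca-1neg gate (26.5 to 36.5 against 10.6 to 14.4 CPM) and lower in the Sca-1+ gate (1.96 to 5.51 against 7.75 and 12.4 CPM). Its interaction of -2.88 passed with 11 libraries (adjusted p = 0.0455) and not with 10 (adjusted p = 0.0912). Of the other gate markers, Itga6 (CD49f) gave 0.43 (adjusted p = 0.583) and Ly6a, which encodes Sca-1, -2.95 (adjusted p = 0.245). Ly6a was at 153 to 294 CPM over the Sca-1+ libraries, 2.46 to 5.74 CPM in Sca-1neg tdT- cells, and 27.7, 59.2 and 9.64 CPM in Sca-1neg tdT+ cells. The Ly6a level thus followed the labelled gate, which was itself sorted on Sca-1. In Sca-1neg tdT+ cells, the 27.7 and 59.2 CPM were from libraries with liver transcripts, and the remaining library was at 9.64 CPM. Without the 3 libraries with liver transcripts the Ly6a interaction was -1.05.

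Ligands, receptors and transcription factors of other pathways contributed single genes. Of 29 genes of BMP and TGF-beta signalling, 2 were called lower with 11 libraries and 1 with 10, and none higher (medians -0.41 and -0.76). Acvrl1, the BMP9 receptor of endothelium, was at 106 and 100 CPM in Sca-1+ tdT- cells and at 9.91 to 15.3 CPM in Sca-1+ tdT+ cells, against 21.4 to 40.8 CPM over the Sca-1neg libraries (interaction -2.92 ± 0.37, adjusted p = 0.00695; 10 libraries -2.58, adjusted p = 0.00481). Bmp6, a BMP ligand of the bulge, was at 3.63 to 6.92 CPM in Sca-1+ tdT+ cells and at 31.4 to 78.0 CPM elsewhere. Its interaction of -2.96 had an adjusted p of 0.0403, and of 0.062 with 10 libraries. Hoxd8 was the 1 called of 27 Hox genes (list median -0.25). It was at 0.929 to 2.22 CPM in Sca-1+ tdT+ cells and at 23.2 to 44.9 CPM elsewhere (interaction -3.68 ± 0.42, adjusted p = 0.00559). Of the 30 genes on the Wnt list, which does not hold the called genes Fzd4 and Tcf7l1, none passed in edgeR (median -0.27); at an unadjusted p below 0.05 there were 3 higher and 6 lower, DESeq2 called 2 each way and limma-voom 3 higher.

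Krt73, a keratin of the inner root sheath, was the 1 called of 21 hair genes (median -1.16). It was at 34.8 and 37.5 CPM in Sca-1+ tdT- cells, 0.341 to 0.746 CPM in Sca-1+ tdT+ cells and 0.992 to 8.06 CPM over the Sca-1neg libraries (interaction -5.15, adjusted p = 0.0269; 10 libraries -4.54, adjusted p = 0.0475). Hdc, the enzyme that makes histamine, was the 1 called of the 3 mast cell genes with enough counts to be tested, of 9 on that list. It was at 36.6 and 61.9 CPM in Sca-1+ tdT- cells, and at 2.37 to 7.21 CPM in Sca-1+ tdT+ (interaction -6.13, adjusted p = 0.0221; 10 libraries -5.34, adjusted p = 0.0161). The other 6 genes of that list, among them the mast cell proteases, did not pass the filter on low counts.

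The 3 genes called higher were lowest in Sca-1+ tdT- cells and had tdT differences of opposite sign in the 2 gates. Agap2, a GTPase-activating protein that acts on PI 3-kinase signalling, was at 4.53 and 4.19 CPM in Sca-1+ tdT- cells, and at 11.1, 17 and 18.8 CPM in Sca-1+ tdT+ cells. In the Sca-1neg gate it was at 9.09, 12.3 and 8.22 CPM in tdT-, and at 7.66, 4.98 and 5.29 CPM in tdT+. The interaction was 2.56 ± 0.47 (adjusted p = 0.0438), and 2.45 with 10 libraries (adjusted p = 0.0912). Adamtsl5, a protein of the microfibril-associated ADAMTS-like family, was at 68.2 to 82.7 CPM in Sca-1neg tdT- cells, 35.4 to 44.8 in Sca-1neg tdT+ cells, 34.4 and 40.8 in Sca-1+ tdT- cells, and 49.1 to 60.4 CPM in Sca-1+ tdT+ cells. Its interaction of 1.48 passed both ways (adjusted p = 0.0233 and 0.0386). Lancl1, a glutathione-binding protein, gave 1.14 (adjusted p = 0.0344) and did not pass with 10 libraries (adjusted p = 0.0854). Without the 3 libraries with liver transcripts the values were 2.48 for Agap2, 1.28 for Adamtsl5 and 0.91 for Lancl1, and none passed (adjusted p = 0.0897, 0.106 and 0.205).

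Leaving out Sca-1neg tdT+ replicate 2 brought 66 of the 98 called genes closer to 0, with a median shift of 0.12 and a largest shift of 1.58 (Sox17) on the log2 scale. These genes were selected in the fit that holds this library, which itself favours a shift in that direction. The same count over all genes, or with another library left out, was not made. The 34 genes that lost the call had adjusted p-values of up to 0.0978, and the 16 gained had values of up to 0.231 with 11 libraries. Among those gained, Selp, the P-selectin of activated endothelium, changed most in its SE. It was at 1.22, 428 and 1.21 CPM in Sca-1neg tdT+ cells, 1.80 to 2.71 CPM in Sca-1neg tdT- cells, 1350 and 1319 CPM in Sca-1+ tdT- cells, and 33.1 to 52.1 CPM in Sca-1+ tdT+ cells. With the 428 CPM of replicate 2 the interaction was -10.94 ± 3.05 (adjusted p = 0.217), and without it -4.06 ± 0.35 (adjusted p = 0.00216).

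Emcn, the endothelial mucin endomucin, likewise was at 0.181, 40.7 and 0.220 CPM in Sca-1neg tdT+ cells and moved from -8.85 (adjusted p = 0.231) to -2.78 (adjusted p = 0.0376). Rasgef1a, an exchange factor for Ras-family GTPases, had 5, 131 and 2 counts in Sca-1neg tdT+ cells and 4, 2 and 3 counts in Sca-1neg tdT- cells. Its value went from -10.53 (adjusted p = 0.0613) to -6.72 (adjusted p = 0.00758), both resting on those few counts. Popdc3, a Popeye-domain membrane protein, was the 1 gene gained as higher (2.13, adjusted p = 0.0479). Gata6 and Cst6, a transcription factor and a cystatin of the upper follicle, were also gained, at -2.36 and -2.36 (adjusted p = 0.0411 and 0.0151). For both, the tdT difference was larger in the Sca-1neg gate. Cst6 was at 53.0 to 82.7 CPM in Sca-1neg tdT- cells, 252, 117 and 266 CPM in Sca-1neg tdT+ cells, 301 and 224 CPM in Sca-1+ tdT- cells, and 153 to 219 CPM in Sca-1+ tdT+ cells. They were the 2 called of 20 upper follicle and sebaceous genes with 10 libraries, where none of the 20 passed in edgeR with 11 (1 higher and 6 lower at an unadjusted p below 0.05, 4 called lower by DESeq2 and 2 by limma-voom). Emcn, Gata6 and Cst6 were named after their values were seen. With each further library left out of the 10, Popdc3 lost its call in all 10 fits, Gata6 in 9 and Emcn in 8. Cst6 lost it in 3 and Rasgef1a in 2.

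**Figure D3:**
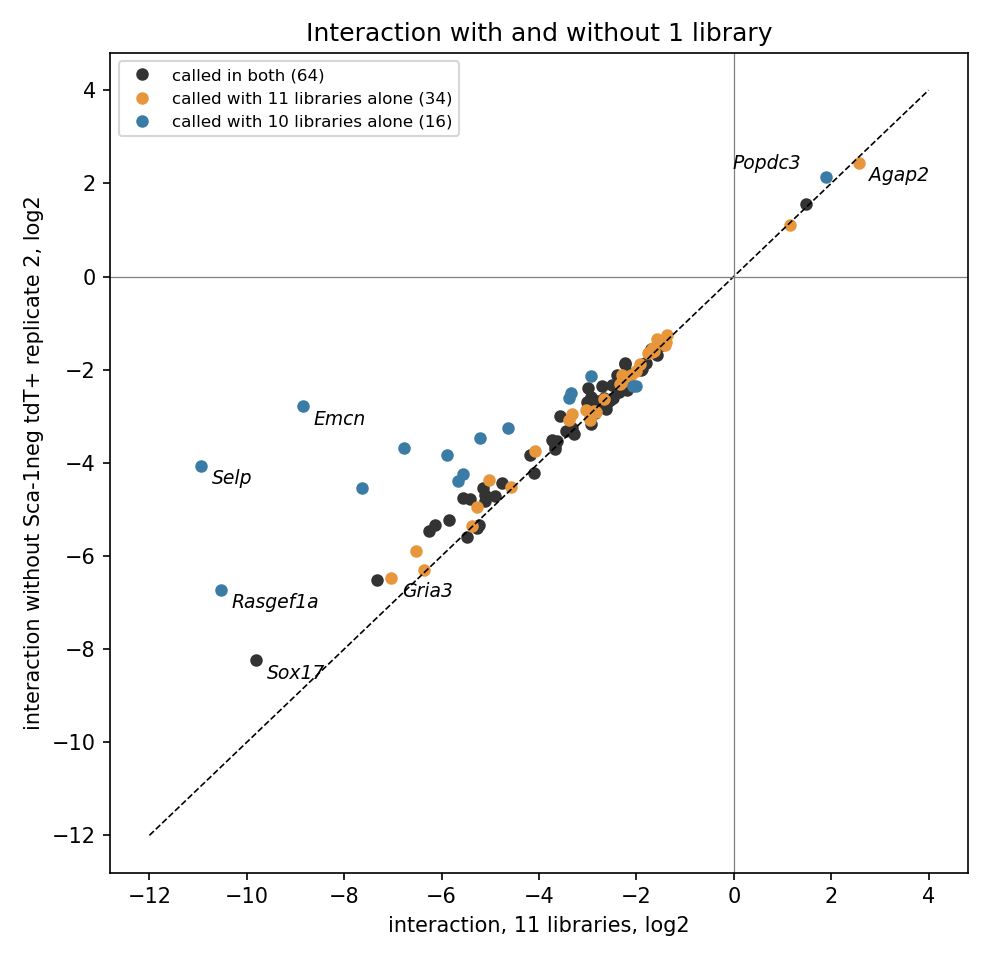
Interaction (log2) of each gene called in either fit, with 11 libraries (x axis) and without Sca-1neg tdT+ replicate 2 (y axis); the dashed line marks equal values. The 64 genes called both ways lie near the line, whereas Selp, Emcn and Rasgef1a lie far above it.

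The lists of T cells, cytotoxic and gamma-delta T cells, pan-leukocyte genes, Langerhans cells and macrophages had no call in edgeR in either direction. Of 24 T cell genes none passed (median 0.87, 5 negative), 5 had an unadjusted p below 0.05, all higher, and DESeq2 called 2 and limma-voom 0. The tdT+ cells were higher than tdT- cells in both gates, with a median difference over the list of 3.0 in the Sca-1+ and 2.56 in the Sca-1neg gate (log2). Cd4 itself had 11, 25 and 12 counts in Sca-1neg tdT- cells, 25, 1 and 22 in Sca-1neg tdT+ cells, 30 and 3 in Sca-1+ tdT- cells, and 174, 72 and 17 in Sca-1+ tdT+ cells; its interaction was 1.53 (adjusted p = 0.772). The Cd4 value rested on single libraries, being 3.62 when replicate 1 of the Sca-1+ tdT- cells was left out and 0.72 when their replicate 2 was, and 0.94 and 0.99 when replicate 2 was left out of the tdT- or the tdT+ group of the Sca-1neg gate. Cd3g, a chain of the T cell receptor complex, was at 0.132 to 1.22 CPM in Sca-1neg tdT- cells, 4.49 to 15.4 in Sca-1neg tdT+ cells, 14.5 and 12.1 in Sca-1+ tdT- cells, and 56.6 to 272 CPM in Sca-1+ tdT+ cells. The rise with tdT in each gate was of like size, 3.67 ± 0.87 and 3.48 ± 0.99, and the interaction was -0.19 ± 1.13 (adjusted p = 0.976), a wide interval that leaves a difference of either sign within reach. Thy1, a surface protein of T cells and fibroblasts, gave 1.27 (adjusted p = 0.331).

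The summed T cell level was 86.0 to 92.0 CPM in Sca-1neg tdT- cells, 113 to 142 in Sca-1neg tdT+ cells, 223 and 216 in Sca-1+ tdT- cells, and 617, 1540 and 1060 CPM in Sca-1+ tdT+ cells. It was thus highest in the group where the called genes were mostly lowest. None of the 16 cytotoxic and epidermal gamma-delta T cell genes passed (median 0.29; 1 at an unadjusted p below 0.05, 0 in DESeq2 and limma-voom), and Il2rb, the interleukin-2 receptor beta chain, gave 0.48 (adjusted p = 0.862). Of 18 pan-leukocyte genes none passed (median -0.79; 2 at an unadjusted p below 0.05, both lower, 2 in DESeq2 and 1 in limma-voom), and Ptprc, the leukocyte marker CD45, gave -0.47 ± 1.24 (adjusted p = 0.931). Over all 20307 genes tested, 1511 were lower at an unadjusted p below 0.05 in edgeR. Without the 3 libraries with liver transcripts Ptprc gave -1.88. All 14 genes of Langerhans cells and MHC class II and all 15 of macrophages had negative values, with medians of -2.81 and -3.75, and none passed in edgeR. At an unadjusted p below 0.05 there were 6 and 3 of them, DESeq2 called 5 and 1, and limma-voom 4 and 1, all lower. Cd74, the invariant chain of MHC class II, gave -3.09 (adjusted p = 0.302). The summed macrophage level spread widely within groups, at 146 and 1090 CPM in Sca-1+ tdT- cells and at 244, 528 and 17.5 CPM in Sca-1neg tdT+ cells. In Sca-1neg tdT- cells it was 11.5, 134 and 9.46 CPM. Within the Sca-1neg gate, the 134, 244 and 528 CPM were those of the libraries with liver transcripts. The part of these cell types in the interaction was not tested.

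Basal keratinocyte genes were present throughout and did not pass in edgeR. Over all 20307 genes tested, 965 were higher at an unadjusted p below 0.05 in edgeR, and DESeq2 called 93 higher. Krt5 and Krt14, the keratins of basal cells, gave 0.84 (adjusted p = 0.245) and 1.24 (adjusted p = 0.154), and Krt5 was at 8213 to 16210 CPM over the 11 libraries. Of 18 basal keratinocyte genes none passed (median 0.43); 5 had an unadjusted p below 0.05, all higher, and DESeq2 called 3 and limma-voom 4. Of 28 proliferation genes none passed (median 0.36), with 0 at an unadjusted p below 0.05 and 0 in DESeq2 and limma-voom. All 42 genes of cytosolic ribosomal proteins had positive values (median 0.79) and none passed; 21 had an unadjusted p below 0.05, and DESeq2 called 2 and limma-voom 1. Krt79, a keratin of the upper follicle, gave -1.55 (adjusted p = 0.182; 10 libraries -1.83, adjusted p = 0.0558). Efnb2, an arterial ephrin that skin epithelium also makes, gave -0.97 (adjusted p = 0.398).

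**Figure D4:**
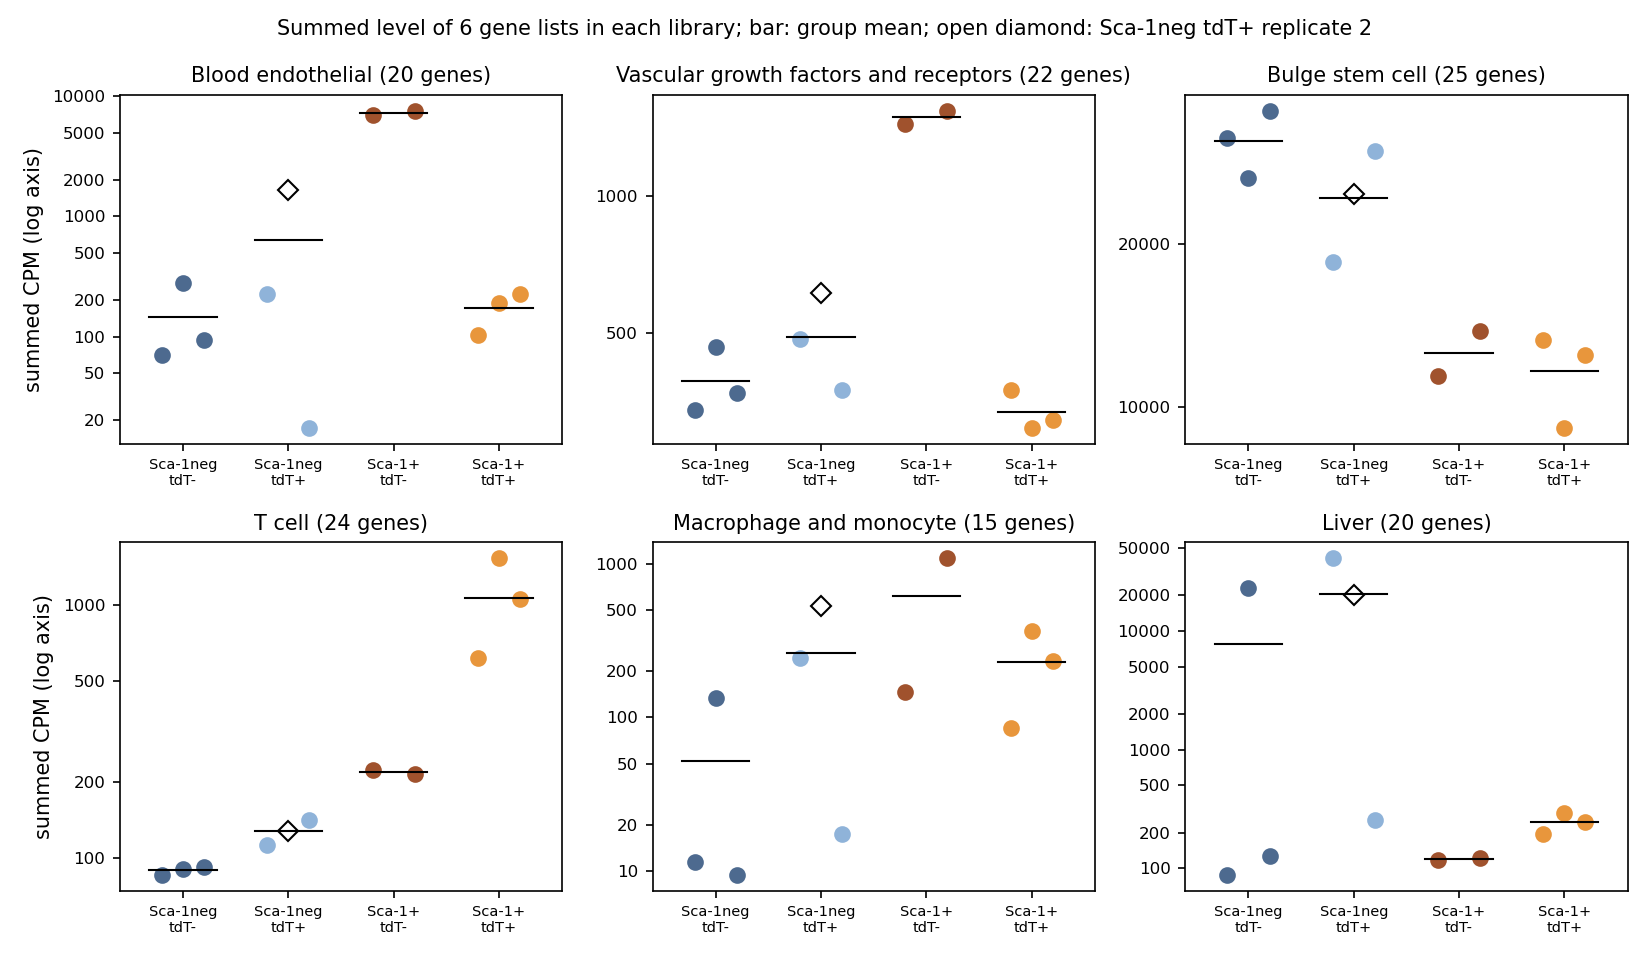
Summed TMM-scaled CPM (log axis) of 6 gene lists in each of the 11 libraries; bars are group means and the open diamond is Sca-1neg tdT+ replicate 2. Blood endothelial and vascular sums are highest in both Sca-1+ tdT- libraries, T cell sums in the Sca-1+ tdT+ libraries, and liver sums in 3 libraries of the Sca-1neg gate.

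A set of 25 genes, all lower, passed with every single library left out and in the other alternatives tried, apart from the 32-week libraries alone, where no gene passed. The members that the naming rule had not picked are given here after their values were seen. Those marked by a high Sca-1+ tdT- level were the 12 genes Nrp2, Hip1, Plxna4, Fzd4, Arrb1, Plekho2, Tbkbp1, Acvrl1, Arhgap31, Cyyr1, Kank3 and Sema6a. Of these, Hip1, Fzd4, Acvrl1 and Arhgap31 also had Sca-1+ tdT+ over 2-fold below both Sca-1neg groups. Those with only a low Sca-1+ tdT+ level were the 12 genes Cd34, Hoxd8, Npr2, Plpp3, Tcf7l1, Lmcd1, Sorbs2, Sparc, Timp2, Plpp1, Cyp2d22 and Gfra1. Rapgef5 belonged to neither. Starting from 10 libraries the same was true of 20 genes, and 13 were in both sets. Within the 32-week libraries, Cd34 had -3.55, Tcf7l1 -3.17, Nrp2 -4.08 and Cyp2d22 -3.17, given as examples from the set. These libraries are part of those that gave the values from all ages and by which the genes were selected. Their Sca-1+ tdT- group is a single library, and their Sca-1neg tdT+ group includes replicate 2, with its reporter at tdT- level. A dependence on age therefore cannot be judged from these values.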

How the data were processed

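RNA of sorted cells was sequenced in 11 libraries (TruSeq RNA v2, per the labels' protocols). The authors deposited raw read counts per gene, 1 table per library; the submitters' processing notes name bcl2fastq 2.20.0.422, FastQC, STAR, featureCounts, DESeq2 1.18.1 and the build mm10. Annotation release, strandedness and handling of multi-mapping reads were not given in any source used here, so overlapping or near-identical genes are uncertain. Symbols and coordinates came from GENCODE M21 (GRCm38), which matched all 55536 genes. A further entry under a protein identifier was read as the reporter and kept out of the gene tests.

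Counts were analysed in R 4.3.3 with the quasi-likelihood test of edgeR 4.0.16 (filterByExpr by group, TMM, robust fit of 4 group means, 7 residual degrees of freedom, or 6 with 10 libraries), Benjamini-Hochberg adjusted over all genes tested, threshold 0.05. Levels are TMM-scaled CPM. Each SE was approximated as the size of the log2 change over the root of its F value. The code was tested on simulated data, where few of the planted interactions passed, so the lack of a call carries little weight. No library copied another (chi-square per degree of freedom of at least 51.4 over 55 pairs). Alternatives used DESeq2 1.42.0, limma 3.58.1 (voom with quality weights), other scalings and filters, a replicate block, age and left-out libraries.

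The comparison, gene lists and tests were chosen with earlier results of these data known. The text names the 12 genes per direction with the largest change in each fit (mean of at least 5 CPM in a group), the 6 per direction with the lowest p, up to 4 members of a list by p (or its 2 most abundant where none passed), the sort markers and Cd4, without predicted genes, pseudogenes and receptor segments; other names are given as chosen after their values were seen.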

Additional observations from a re-analysis of the deposited data

Results flagged for a closer look

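The tdT difference was tested to differ between the Sca-1 gates for 98 genes with 11 libraries and for 80 without Sca-1neg tdT+ replicate 2. The following are log2 interactions (Sca-1+ gate minus Sca-1neg gate) of the genes named above that passed. The 3 higher values were Agap2 2.56, Adamtsl5 1.48, Lancl1 1.14. Values of -5 or lower were Sox17 -9.81, Thsd7a -7.32, Gria3 -7.03, Hspa12b -6.53, Tmem255a -6.36, Cyyr1 -6.27, Hdc -6.13, Plxna4 -5.84, Spns2 -5.56, Sorbs2 -5.48, Ramp2 -5.42, Tmem47 -5.37, Dmtn -5.27, Sncaip -5.11, Krt73 -5.15. Values between -5 and -3 were Fzd4 -4.91, Cyp2d22 -3.36, Arhgap31 -4.76, Lmcd1 -4.11, Nrp2 -4.19, Sema6a -3.67, Cd34 -3.32, Calcrl -3.56, Hoxd8 -3.68, Icam1 -3.00. The smaller values were Hip1 -2.28, Sparc -1.82, Tcf7l1 -2.94, Bmp6 -2.96, Hspg2 -2.16, Lama4 -2.22, Col4a2 -2.96, Acvrl1 -2.92, Timp2 -2.85, Gfra1 -2.54, Itga5 -2.39, Itga4 -2.88. With 10 libraries alone, the values were Popdc3 2.13, Rasgef1a -6.72, Selp -4.06, Emcn -2.78, Gata6 -2.36, Cst6 -2.36.

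The reporter entry was outside the gene tests. It was above the tdT- libraries in 5 of the 6 libraries labelled tdT+, at 133 CPM (replicate 1) and 252 CPM (replicate 3) of the Sca-1neg gate and at 254, 224 and 307 CPM for the 3 of the Sca-1+ gate. Replicate 2 of the library group labelled Sca-1neg tdT+ was at 2.05 CPM, no higher than the tdT- libraries.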

How the results depend on the processing

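With 11 libraries, against 98 called, the number was 841 with DESeq2, 680 with limma-voom (90 higher, 590 lower), 156 with DESeq2 size factors in edgeR, 234 without a low-count filter, 172 with at least 10 CPM in 2 libraries, 0 with the 32-week libraries alone and 220 without the 3 libraries with liver transcripts; leaving out each library gave 26 to 347. Library size alone (88) and age as a factor (95) stayed within 1.5 times. Asking in addition for a log2 change of at least 1 kept all 98, since every called gene already exceeded it, and is no separate check. With 10 libraries, against 80, it was 694 with DESeq2, 129 with limma-voom, 240 without a filter, 134 with the 10 CPM filter, 0 with the 32-week libraries alone, and 28 to 141 with each further library left out. DESeq2 size factors moved the median of all genes from 0.05 to -0.07. No called gene changed sign in any alternative. The main test did not pair libraries by replicate number. Same-number correlations ran from -0.41 to 0.59, 7 of 15 over 0.1, and 7 of 11 libraries correlated best with their own number. These values do not settle whether libraries of the same number belong together. With a replicate block 123 genes were called, 84 of the 98 among them, and 134 with 10 libraries. Of named genes, Agap2, Calcrl, Col4a2, Gria3, Hspa12b, Icam1 and Tmem47 did not pass with the block. Of uncalled genes, Il2rb turned to -0.065 with limma-voom and to -0.25 without the 3 libraries with liver transcripts, and Ptprc to 0.10 with 11 and 0.44 with 10 libraries in the 32-week mice. With each library left out, Il2rb ran from -0.063 to 0.84, Ptprc from -2.38 to 0.018 and Cd3g from -1.05 to 0.29; with 10 libraries, Cd3g ran from -0.99 to 0.99 and Ptprc from -2.37 to 0.12. The causes were not tested. Sca-1+ tdT- has 2 libraries, which limits every value here.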
